A study of Mus musculus with 11 samples.

Results

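The 10 genes described here build the acetylcholine receptor of skeletal muscle and gather it under the nerve ending: the receptor subunit genes Chrna1, Chrnb1, Chrnd, Chrng and Chrne, the scaffold gene Rapsn, and the genes of the agrin pathway, Agrn, Lrp4, Musk and Dok7. They were chosen by symbol, and all 10 were found among the 15113 genes of the count table. Counts came from 3' end messenger RNA libraries of C2C12 cells, an established mouse myoblast line whose cells, once starved of serum, join into multinucleated myotubes. The control group, shRandom (n = 6), had a random short hairpin RNA, and the other group, shDRP1 (n = 5), had a hairpin against dynamin-related protein 1, the GTPase that divides mitochondria. All libraries were labelled early stage myotubes at passages 2 to 5. How the hairpins were delivered, and whether either line was clonal, is not given in the sources used here, and no label states that the replicates came from different cultures. The p-values thus rest on a spread among libraries that may be technical only.

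The muscle acetylcholine receptor is a ring of 5 subunits around a cation pore that opens when acetylcholine binds and so starts the muscle action potential. Fetal and denervated muscle uses the gamma subunit, and innervated adult muscle replaces it by the epsilon subunit. Receptors are clustered when agrin, released by the motor nerve, binds the co-receptor LRP4, which activates the kinase MuSK; the adaptor DOK7 holds MuSK active from inside the cell, and rapsyn ties the receptors together. Myotubes make most of this machinery themselves before any nerve arrives, and basic helix-loop-helix factors such as myogenin act on the subunit genes through E-boxes, short DNA elements of the form CANNTG.

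The windows below run from 250 bases before to 50 bases after the start of 6 of the genes, taken from RefSeq on GRCm38.p6, and are shown because they are the stretches in which E-boxes of the receptor genes were described. RefSeq windows were matched by symbol for 7 of the 10 genes. Capitals mark CANNTG, and in Chrne also the N-box letters CCGGAA. The Chrna1 window is chr2:73580289-73580588 on the minus strand, that of Chrng is chr1:87205561-87205860 on the plus strand, and that of Chrne is chr11:70619145-70619444 on the minus strand. The RefSeq start of Chrng, 87205811, and its whole window lie inside the gene as GENCODE places it, from 87204657. The Musk window is chr4:58285712-58286011 on the plus strand, that of Dok7, the first of 2 listed starts, is chr5:35056516-35056815 on the plus strand, and that of Agrn, also the first of 2, is chr4:156197439-156197738 on the minus strand.
Chrna1: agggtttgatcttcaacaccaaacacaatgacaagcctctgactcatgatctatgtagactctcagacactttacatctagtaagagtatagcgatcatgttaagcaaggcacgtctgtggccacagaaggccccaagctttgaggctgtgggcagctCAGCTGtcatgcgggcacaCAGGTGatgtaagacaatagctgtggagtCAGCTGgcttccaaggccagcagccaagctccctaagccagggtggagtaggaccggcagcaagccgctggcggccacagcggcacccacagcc
Chrng: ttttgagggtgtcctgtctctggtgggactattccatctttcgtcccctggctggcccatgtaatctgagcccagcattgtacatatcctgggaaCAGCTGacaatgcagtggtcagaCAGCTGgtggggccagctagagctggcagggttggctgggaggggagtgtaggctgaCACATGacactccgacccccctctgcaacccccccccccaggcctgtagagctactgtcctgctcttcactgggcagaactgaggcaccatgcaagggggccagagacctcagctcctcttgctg
Chrne: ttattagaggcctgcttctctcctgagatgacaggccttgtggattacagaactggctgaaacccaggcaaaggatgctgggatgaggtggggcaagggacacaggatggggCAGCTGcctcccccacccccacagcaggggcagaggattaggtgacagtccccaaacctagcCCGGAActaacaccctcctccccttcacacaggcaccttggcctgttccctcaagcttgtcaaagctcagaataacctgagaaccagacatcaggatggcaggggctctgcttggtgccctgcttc
Musk: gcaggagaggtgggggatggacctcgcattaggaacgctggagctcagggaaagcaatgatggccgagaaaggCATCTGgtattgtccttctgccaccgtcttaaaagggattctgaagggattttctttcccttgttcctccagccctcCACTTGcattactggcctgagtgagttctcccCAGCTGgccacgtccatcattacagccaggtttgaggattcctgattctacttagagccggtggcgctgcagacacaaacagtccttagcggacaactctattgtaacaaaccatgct
Dok7: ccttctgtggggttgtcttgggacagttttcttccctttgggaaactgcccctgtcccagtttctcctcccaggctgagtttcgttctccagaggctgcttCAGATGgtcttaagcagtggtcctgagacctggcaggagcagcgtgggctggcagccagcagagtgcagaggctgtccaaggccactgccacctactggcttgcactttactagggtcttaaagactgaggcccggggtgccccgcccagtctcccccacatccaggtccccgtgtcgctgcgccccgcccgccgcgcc
Agrn: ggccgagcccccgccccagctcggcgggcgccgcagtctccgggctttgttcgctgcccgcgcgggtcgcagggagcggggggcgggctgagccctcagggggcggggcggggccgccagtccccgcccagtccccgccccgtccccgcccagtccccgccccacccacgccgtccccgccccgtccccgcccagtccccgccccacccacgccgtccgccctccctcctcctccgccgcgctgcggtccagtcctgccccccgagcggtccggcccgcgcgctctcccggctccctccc

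CANNTG, which reads the same on both strands, was present 3 times each in the windows of Chrna1, Chrng, Musk and Chrnb1, and 1 time each in those of Chrne and Dok7. It was absent from the Agrn window above and present 1 time in the window of the second Agrn start, and it was absent from the window of the second Dok7 start. Of 32851 RefSeq windows of the same length, 72.3% held at least 1 CANNTG. The form CAGCTG, which is also a CANNTG, was present 2 times each in Chrna1 and Chrng and 1 time each in Musk and Chrne, and 16.3% of all windows held it. CCGGAA was searched on both strands and was present 1 time, in Chrne, where it begins 76 bases before the start; 14.9% of all windows held it. A match is a description of these letters only.

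Total counts ran from 12277622 to 23082617 per library. Dnm1l, the gene targeted by the hairpin, was at 78.5 ± 8.63 CPM (the count relative to the TMM-scaled library size; SD, n = 6) in shRandom and 18.7 ± 2.58 CPM (SD, n = 5) in shDRP1 libraries. The label of the cells was checked with 12 myotube markers. All 12 had counts and all 12 fell, by log2 fold changes between -7.81 and -3.34, and their summed level was 11703 to 13012 CPM in shRandom and 156 to 225 CPM in shDRP1 libraries. The shDRP1 libraries therefore held little of the RNA that their label names. In bulk samples, fewer myotubes and less RNA per myotube cannot be told apart. Smooth muscle markers (4 of 6 with counts) summed to 2678 to 3218 CPM in shRandom and 8193 to 9962 CPM in shDRP1 libraries. Fibroblast markers (6 of 7) summed to 5035 to 5344 and 8885 to 12299 CPM. Of the tested markers 3 of 4 and 5 of 6 rose, where 33.9% of all genes tested did. Most of the smooth muscle sum was Acta2, at 2686 and 7970 CPM, while Smtn, at 68.8 and 65.5 CPM, was not called (adjusted p = 0.496). The fibroblast marker Pdgfra, at 7.17 and 6.69 CPM, was not called either (adjusted p = 0.597, both edgeR). Myh11, Myocd and Thy1 were not analysed here. The part of both lists in the results below was not tested. Immune markers (2 of 6) stayed at or below 1.26 CPM and endothelial markers (2 of 5) at or below 1.29 CPM in each library.

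Of the 10 genes, 9 passed the low-count filter and were tested with edgeR: 7 fell, 1 rose and 1 was not called at an adjusted p of 0.05, and Chrne was too low to be tested. Among all 13025 genes tested, 33.3% were called lower and 33.9% higher (3751 genes lower and 5207 higher with library totals alone), and the median log2 fold change was 0.03, against -3.87 for the 9 members. All shDRP1 libraries lay below all shRandom libraries for 7 of the 9, as for 25.4% of all genes tested, and above them for 0 of the 9, as for 23.5%; in either direction 48.9% of all genes tested had groups apart. The genes that fell were the 4 measurable receptor subunits, rapsyn, the kinase MuSK and its adaptor DOK7, while the ligand agrin rose slightly and its co-receptor LRP4 had no call.

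**Figure D1:**
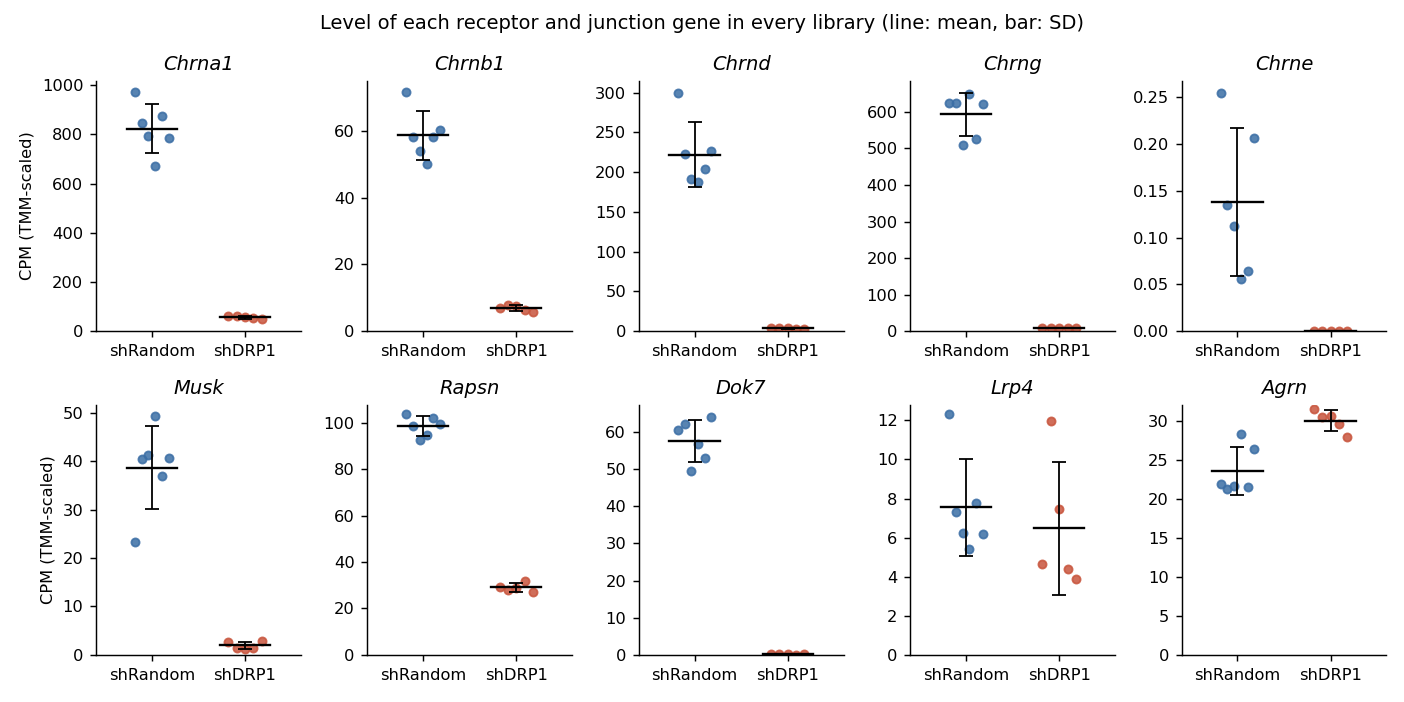
Level of each gene in CPM (vertical axis, linear and starting at 0) in every shRandom (blue, n = 6) and shDRP1 (red, n = 5) library, with the mean as a line and the SD as a bar. All shDRP1 points lie below all shRandom points for Chrna1, Chrnb1, Chrnd, Chrng, Musk, Rapsn and Dok7, while Lrp4 and Agrn overlap and Chrne is at 0 in every shDRP1 library.

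Chrna1 (ENSMUSG00000027107, chromosome 2, 73563215 to 73580338, minus strand of GRCm38) encodes the alpha subunit, which binds acetylcholine and is present as a pair in each receptor. It was at 971, 846, 793, 672, 875 and 785 CPM in shRandom replicates 1 to 6 and at 61.3, 60.3, 57.9, 52.7 and 48.6 CPM in shDRP1 replicates 1 to 5. Every shDRP1 library was far below every shRandom library, and 6.82% of the control mean was left. On the log2 scale the change was -3.87 (SE 0.10), with an adjusted p = 2.3e-13 in the edgeR quasi-likelihood test.

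Chrnb1 (ENSMUSG00000041189, chromosome 11, 69784036 to 69795943, minus strand), the beta subunit through which rapsyn binds the receptor, was at 71.7, 58.1, 54.1, 50.1, 58.3 and 60.4 CPM in shRandom and at 6.90, 7.96, 7.67, 6.50 and 5.64 CPM in shDRP1 libraries. The groups did not overlap, with a log2 fold change of -3.09 and an SE of 0.11 (adjusted p = 7.0e-12, edgeR). Its 3' end lies 13 bases from that of Zbtb4 on the other strand. Zbtb4 was at 59.4 and 54.7 CPM and was not called (adjusted p = 0.233, edgeR), and since no strand setting of the counting is stated, reads of this pair may not be fully separated.

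Chrnd (ENSMUSG00000026251, chromosome 1, 87190607 to 87200070, plus strand), the delta subunit, fell further. Its values were 299.8, 222, 191, 188, 204 and 227 CPM in shRandom and 4.64, 3.56, 4.17, 2.49 and 3.02 CPM in shDRP1 libraries. Replicate 1 was the highest of the control libraries, and all of them stood above all shDRP1 libraries. This gave a log2 fold change of -5.96 with an SE of 0.18 (adjusted p = 2.3e-12, edgeR).

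Chrng (ENSMUSG00000026253, chromosome 1, 87204657 to 87212694, plus strand), the fetal gamma subunit, begins 4587 bases after the end of Chrnd. Its values were 625, 625, 510, 649, 526 and 622 CPM in shRandom and 9.74, 8.97, 9.21, 7.86 and 7.85 CPM in shDRP1 libraries. Within each group the libraries were close together, with coefficients of variation of 9.99% and 9.66%. The mean fell to 1.47% of control, a log2 fold change of -6.09 (SE 0.10, adjusted p = 4.6e-15, edgeR). The 95% intervals of the fold changes of these neighbours, -6.31 to -5.86 for Chrng and -6.35 to -5.57 for Chrnd, overlap.

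Chrne (ENSMUSG00000014609, chromosome 11, 70614883 to 70619216, minus strand), the adult epsilon subunit, was near the limit of detection in both groups. Its raw counts were 4, 3, 2, 1, 1 and 4 in shRandom replicates 1 to 6 and 0 in all 5 shDRP1 libraries. Over the whole control group that is 15 counts or 0.138 CPM, and a count of 0 over the shDRP1 group allows up to 3 counts or 0.0341 CPM. With the 15 control counts taken as exact, the level was thus at least 4.05-fold lower. This bound covers counting error of the shDRP1 group only and leaves out that of the control group. It covers no other error, since PCR reads carried no molecular identifiers. Without the low-count filter Chrne was called lower by edgeR (adjusted p = 0.0035), and DESeq2 also called it (adjusted p = 0.0039).

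The subunits did not fall in step, so the split of receptor counts among them changed. Counts of 3' ends do not grow with transcript length, so they were set side by side without division by length. The 5 subunit genes summed to 1698 ± 154 CPM (SD, n = 6) in shRandom and 75.4 ± 7.63 CPM (SD, n = 5) in shDRP1 libraries. Chrna1 took 48.5% ± 3.44 of these counts in shRandom and 74.5% ± 0.884 in shDRP1 libraries, and Chrnb1 took 3.46% ± 0.160 and 9.18% ± 0.658. The share of Chrng was 35.1% ± 3.84 in shRandom and 11.6% ± 0.383 in shDRP1 libraries, and that of Chrnd was 13.0% ± 1.18 and 4.71% ± 0.792 (SD, n = 6 and n = 5 throughout). For each of these 4 genes the shares of the groups did not overlap: the alpha and beta subunits took a larger part and the gamma and delta subunits a smaller part of what was left. Reads of Zbtb4 may be among the Chrnb1 counts, as given above, and their part in these shares was not tested.

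**Figure D2:**
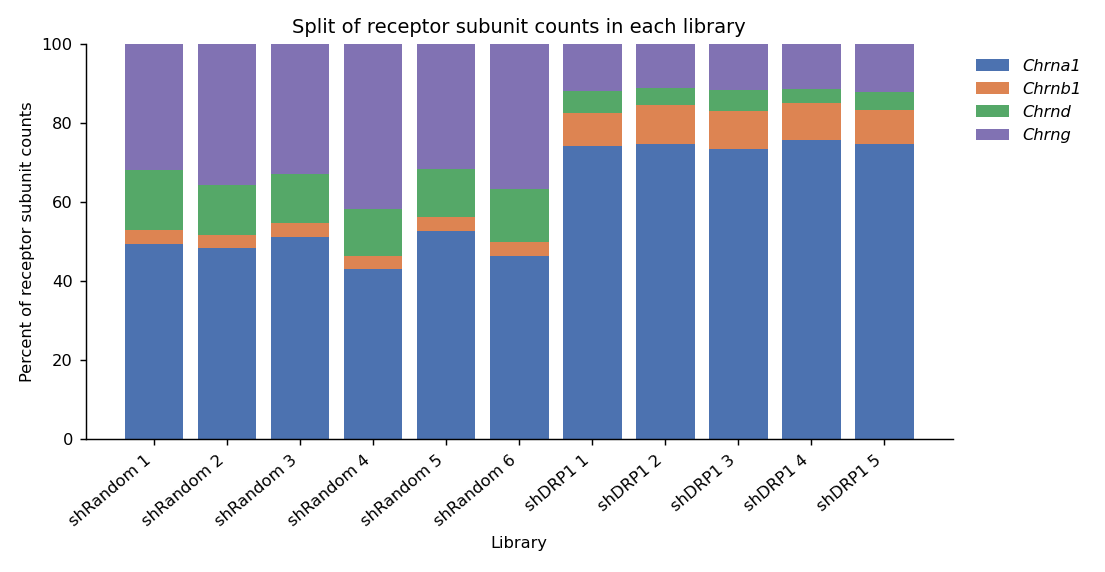
Share of the receptor subunit counts (vertical axis, percent) taken by Chrna1, Chrnb1, Chrnd and Chrng in each library (horizontal axis); Chrne, at most 0.0129%, is too small to see. The Chrna1 segment runs from 43.1% to 52.6% in shRandom and from 73.3% to 75.8% in shDRP1 libraries, while the Chrng segment shrinks.

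Ratios between genes within a library do not depend on the scaling between libraries, and 4 of them were tested with a two-sided exact permutation test over all 462 ways to assign the libraries, whose smallest p is 0.00216. Alpha to beta, Chrna1 to Chrnb1, had a log2 ratio of counts of 3.81 ± 0.08 (SD, n = 6) in shRandom and 3.02 ± 0.11 (SD, n = 5) in shDRP1 libraries. The difference of -0.79 (exact permutation test, p = 0.00216, also 0.00216 adjusted over the 4 ratios) says that Chrna1 counts fell more than those assigned to Chrnb1, in 5 of 5 shDRP1 libraries against every control library. Reads of Chrnb1 and Zbtb4 may not be fully separated, as given above, and their part in this ratio was not tested. Gamma to epsilon, Chrng to Chrne, went from 11.93 ± 0.67 to 8.24 ± 0.26 with a pseudocount of 0.5 (exact permutation test, p = 0.00216, and 0.00216 adjusted). In the shDRP1 libraries this ratio is set by the Chrng count and the pseudocount, because Chrne has no counts there. It therefore does depend on depth, unlike the other ratios. Neither its size nor its p says anything about a switch between the subunits.

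Rapsn (ENSMUSG00000002104, chromosome 2, 91035620 to 91045729, plus strand) encodes rapsyn, the scaffold that packs receptors into clusters. It was at 104, 98.7, 92.4, 94.9, 102 and 99.6 CPM in shRandom and at 29.4, 28.1, 28.9, 31.8 and 27.04 CPM in shDRP1 libraries. Its groups were tight and well apart, and 29.5% of the control mean was left, the largest remaining part among the 7 genes that fell. Gm13778, a gene on the other strand, overlaps the 3' end region of Rapsn, with at most 4 bases shared by exons of the pair. Since no strand setting of the counting is stated, reads of this pair may not be fully separated. Rapsn changed by -1.76 on the log2 scale (SE 0.06; edgeR, adjusted p = 3.8e-12), with a 95% interval of -1.89 to -1.63, while that of Chrna1 was -4.10 to -3.65; the difference between these genes was not tested.

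Musk (ENSMUSG00000057280, chromosome 4, 58285960 to 58374303, plus strand), the receptor tyrosine kinase that starts clustering, was at 23.2, 40.4, 41.3, 49.3, 36.9 and 40.7 CPM in shRandom and at 2.67, 1.47, 1.29, 1.36 and 2.97 CPM in shDRP1 libraries. Replicate 1 was the lowest of the control libraries, still well above the highest shDRP1 library. Its log2 fold change of -4.31 had an SE of 0.25 (adjusted p = 2.8e-09, edgeR).

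Dok7 (ENSMUSG00000044716, chromosome 5, 35056766 to 35087839, plus strand), the cytoplasmic activator of MuSK, had the lowest fold change of the 9 tested members. Its values were 60.4, 62.1, 49.3, 56.7, 53.0 and 64.0 CPM in shRandom and 0.290, 0.155, 0.309, 0.0471 and 0.291 CPM in shDRP1 libraries. In raw counts, 6296 were seen over the control group and 19 over the shDRP1 group, so the gene was all but lost from these libraries. The change was -8.01 on the log2 scale (SE 0.19; edgeR, adjusted p = 7.5e-14), and 0.345% of all genes tested had a lower one.

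Lrp4 (ENSMUSG00000027253, chromosome 2, 91457511 to 91513779, plus strand), the co-receptor that binds agrin and passes the signal to MuSK, showed no difference beyond the spread between libraries. It was at 12.3, 7.30, 6.23, 5.41, 7.80 and 6.19 CPM in shRandom and at 4.64, 11.98, 7.46, 4.38 and 3.90 CPM in shDRP1 libraries. In each group 1 library, shRandom replicate 1 and shDRP1 replicate 2, stood above the rest, and the groups overlapped. The log2 fold change was -0.24 (adjusted p = 0.495, edgeR) with a 95% interval of -0.88 to 0.40. Without shDRP1 replicate 2 it was -0.57 (adjusted p = 0.056), and without shRandom replicate 1 it was -0.05 (adjusted p = 0.872, both edgeR).

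Agrn (ENSMUSG00000041936, chromosome 4, 156165290 to 156197488, minus strand) encodes agrin, the heparan sulfate proteoglycan that the nerve, and in a less active form also muscle, lays into the basal lamina. It was at 22.01, 21.3, 21.7, 28.4, 21.6 and 26.5 CPM in shRandom and at 31.6, 30.5, 30.7, 29.7 and 28.0 CPM in shDRP1 libraries. The groups met only at their edges, where shRandom replicate 4 lay above shDRP1 replicate 5. Agrn rose by 0.35 on the log2 scale (SE 0.09; edgeR, adjusted p = 0.0029), to a mean of 127% of control. Counts of 3' ends do not separate the nerve and muscle splice forms. Motor neuron markers, of which 4 of 9 had counts, summed to 120 to 165 CPM in shRandom and 26.8 to 34.3 CPM in shDRP1 libraries, with Stmn2 falling from 117 to 18.4 CPM and Tubb3 from 23.3 to 9.13 CPM while Syt1 rose from 1.25 to 2.41 CPM, and the defining markers Chat, Slc18a3, Mnx1, Lhx3 and Snap25 were not analysed here. Schwann cell markers (6 of 8 with counts; Sox10 and Foxd3 not analysed here) summed to 6.35 to 12.8 and 10.96 to 12.8 CPM; within them S100b rose from 0.0752 to 6.76 CPM (adjusted p = 2.2e-10) and Egr2 fell from 6.98 to 2.68 CPM (adjusted p = 6.3e-05, edgeR). All libraries were of C2C12 cells, so these sums describe the marker genes and not the presence of nerve or Schwann cells. Their relation to the Agrn result was not tested.

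**Figure D3:**
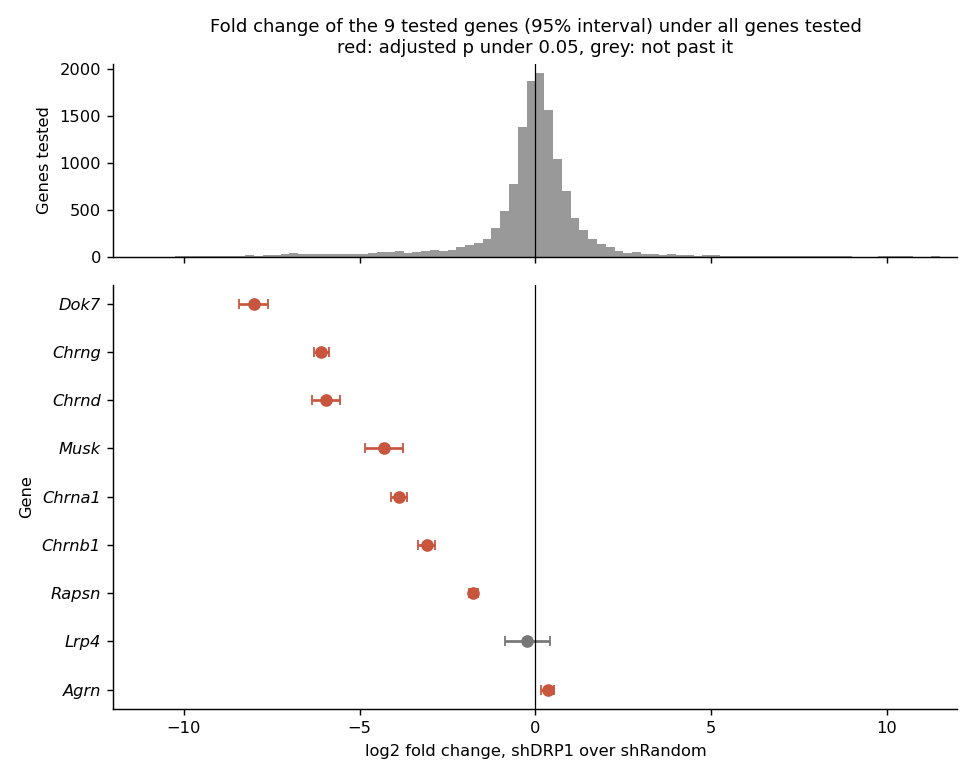
Upper panel: number of genes tested (vertical axis) by log2 fold change of shDRP1 over shRandom (horizontal axis). Lower panel: the 9 tested members with 95% intervals, red where the adjusted p was under 0.05, from Dok7 at -8.01 to Agrn at 0.35, with Lrp4 at -0.24 in grey.

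Within the agrin pathway, Musk was set against its co-receptor Lrp4 and its ligand Agrn; Agrn against Lrp4 was not tested. The log2 ratio of Musk to Lrp4 counts was 2.37 ± 0.78 (SD, n = 6) in shRandom and -1.67 ± 1.10 (SD, n = 5) in shDRP1 libraries, a difference of -4.04 (two-sided exact permutation test, p = 0.00216, and 0.00216 adjusted over the 4 ratios). The log2 ratio of Musk to Agrn was 0.68 ± 0.32 and -4.02 ± 0.59, a difference of -4.70 (exact permutation test, p = 0.00216 and 0.00216 adjusted). Both ratios were lower in 5 of 5 shDRP1 libraries than in any control library.

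**Figure D4:**
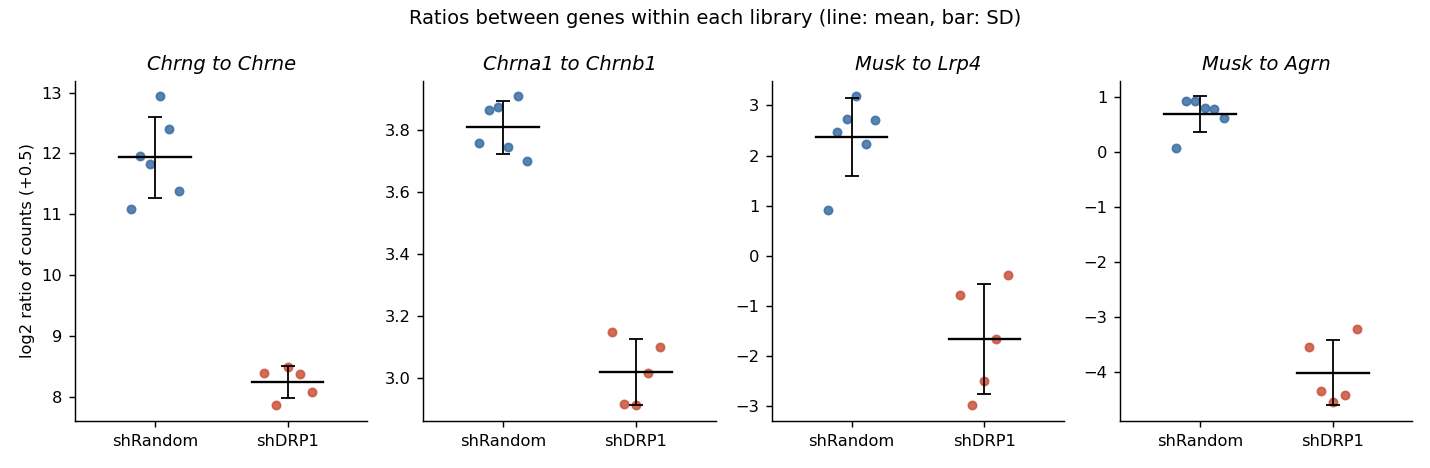
Log2 ratio of counts, with 0.5 added to each count (vertical axes, which do not start at 0), for the 4 gene pairs in every shRandom (blue) and shDRP1 (red) library, with the mean as a line and the SD as a bar. In all 4 panels the groups do not overlap; the shDRP1 values of Chrng to Chrne, 7.86 to 8.49, rest on a Chrne count of 0.

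The genes whose profile over the 11 libraries was most like that of 3 members were found by the root-mean-square distance of log2(CPM + 0.5), relative to the control mean, among 11772 genes. Nearest to Chrna1 were Tpd52l1 (0.13 log2 units), the muscle ubiquitin ligase Trim63 (0.14) and the secretin receptor Sctr (0.15). Near to Chrng were Pgm5 (0.14), a phosphoglucomutase relative of adhesion sites, and the corepressor Cbfa2t3 (0.18). Nearest to Musk were Ccdc141 (0.23), the slow troponin T Tnnt1 (0.27) and Ppp1r14c (0.28). The pseudocount flattens the change of low genes, so that Tpd52l1 is near Chrna1 on this scale although its fitted log2 fold change was -6.91.

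Of the 18 nearest tested neighbours on the chromosome that are no members, 6 fell, 5 rose and 7 were not called (edgeR), where 33.3% of all genes tested fell, 33.9% rose and 67.1% were called in either direction. The following were singled out after their values were seen. Fgf11, which lies 125 bases upstream of Chrnb1 on the same strand, was at 23.1 and 1.61 CPM, a log2 fold change of -3.85 (adjusted p = 1.0e-12, edgeR). Isg15, an interferon-induced ubiquitin-like protein gene 1936 bases upstream of Agrn on the same strand, was higher, at 6.13 and 49.0 CPM (adjusted p = 3.4e-07, edgeR). Eif4e2, 1220 bases beyond Chrng, was at 273 and 237 CPM and was not called (adjusted p = 0.107, edgeR).

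Beyond the members, nicotinic subunit genes outside the muscle receptor were looked up. Of 11 such genes 1, Chrnb2, could be analysed, with 45 counts over the shRandom and 14 over the shDRP1 group, and it was below the low-count filter. The muscle esterase Ache and its collagen anchor Colq were likewise below the filter, at 0.207 and 0.338 CPM in shRandom and 0.0992 and 0.0768 CPM in shDRP1 libraries. Of 15 genes of receptor assembly and acetylcholine breakdown, 9 were tested: 4 rose, 3 fell and 2 were not called, with a median log2 fold change of 0.07, so that 77.8% were called beside 67.1% of all genes tested. The glycosylation genes Gfpt1 and Alg2, mutated in congenital myasthenic syndromes, rose from 70.1 to 123 CPM (adjusted p = 5.4e-09) and from 23.4 to 46.6 CPM (adjusted p = 7.3e-08). Others of this class differed in direction. Gmppb rose from 45.6 to 67.4 CPM (adjusted p = 8.5e-05) and Dpagt1 fell from 43.0 to 29.9 CPM (adjusted p = 2.0e-04). Alg14, at 46.7 and 47.9 CPM, was not called (adjusted p = 0.658). Ubxn2a, which acts in receptor trafficking, fell from 35.5 to 14.8 CPM (adjusted p = 4.3e-06), and Vamp1, a vesicle fusion protein, from 9.52 to 4.60 CPM (adjusted p = 3.2e-05, all edgeR).

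Of 33 partners of MuSK, LRP4 and neuregulin signalling, 29 were tested: 14 fell, 7 rose and 8 were not called, with a median log2 fold change of -0.35. Of the tested genes 72.4% were called, beside 67.1% of all genes. The neuregulin receptor Erbb3 was at 17.3 to 20.6 CPM in shRandom libraries and had 2 counts in the shDRP1 group, both in replicate 2, a ratio of control to shDRP1 of 837 (95% exact binomial interval 231 to 6912, for counting error only). Without that library no shDRP1 count of Erbb3 was left. Its ligand Nrg1 rose from 15.9 to 35.4 CPM, a log2 fold change of 1.16 (SE 0.08, adjusted p = 7.2e-09). Wnt9a, a secreted Wnt ligand, fell from 30.0 to 2.79 CPM (adjusted p = 1.3e-07), and the kinase Src rose from 8.66 to 16.7 CPM (adjusted p = 2.9e-05). Its relatives Fyn and Yes1 fell, from 191 to 37.3 CPM (adjusted p = 3.1e-12) and from 13.2 to 9.46 CPM (adjusted p = 0.022, all edgeR).

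Of 30 genes of the synaptic scaffold and basal lamina, 27 were tested: 15 fell, 6 rose and 6 were not called, with a median of -0.76, and 77.8% of the tested genes were called beside 67.1% of all genes. The laminin chain Lama4 fell from 28.4 to 2.37 CPM (adjusted p = 4.8e-11) and the laminin-binding integrin Itga7 from 523 to 45.6 CPM (adjusted p = 7.4e-15). In the other direction, the integrin Itga3 rose from 24.95 to 87.5 CPM (adjusted p = 6.3e-12) and the basement membrane protein Nid2 from 34.6 to 147 CPM (adjusted p = 4.8e-06, all edgeR). The summed fibroblast and smooth muscle markers were higher in shDRP1 libraries as given above, though Smtn and Pdgfra were not called. The part of these markers in the genes that rose was not tested.

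Of 35 transcription regulators tied to synaptic genes, 31 were tested: 19 fell, 6 rose and 6 were not called, with a median of -0.53, and 80.6% were called beside 67.1% of all genes. Myogenin (Myog), an E-box factor, was at 952 to 1516 CPM in shRandom and 3.53 to 9.86 CPM in shDRP1 libraries (log2 fold change -7.69, SE 0.28, adjusted p = 4.7e-11). Msc, a helix-loop-helix repressor of myogenesis, fell from 9.70 to 0.135 CPM (adjusted p = 4.0e-09). Of its 12 counts in the shDRP1 group 8 were in replicate 1, and without that library the mean was 0.0531 CPM, so the size of the change is uncertain. Id3, an inhibitor that keeps helix-loop-helix factors from DNA, rose from 43.9 to 161 CPM (adjusted p = 1.5e-04). Its relatives Id1 and Id2 fell, from 50.8 to 17.9 CPM (adjusted p = 7.4e-08) and from 148 to 15.6 CPM (adjusted p = 6.4e-12). The coactivator Eya1 rose from 6.89 to 35.3 CPM (adjusted p = 4.7e-12, all edgeR).

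**Figure D5:**
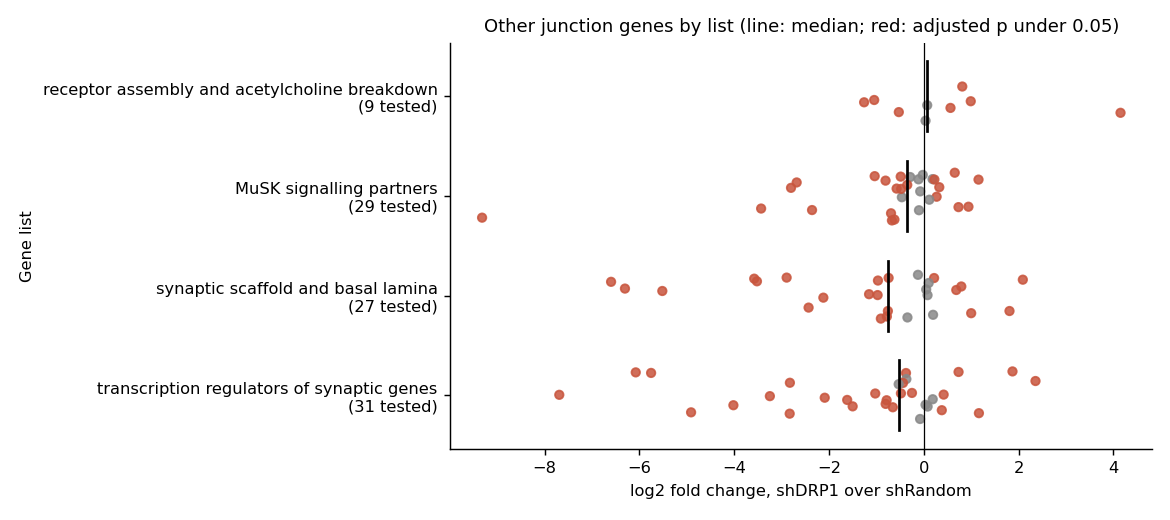
Log2 fold change of shDRP1 over shRandom (horizontal axis) for each tested gene of 4 lists (vertical axis; 9, 29, 27 and 31 genes), red where the adjusted p was under 0.05, with the median as a line. The medians are 0.07, -0.35, -0.76 and -0.53, and each list holds genes on both sides of 0.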

How the data were processed

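The deposited table holds whole-number counts of 3' end tags per Ensembl gene, made by the authors from 11 libraries of total RNA (6 shRandom and 5 shDRP1, grouped by title), not normalized. Per the labels' protocols the libraries were made with a QuantSeq kit, and per the series text reads were aligned in BlueBee; builds GRCm38 and mm10 and the tool DESeq2 (version 1.22.2) appear in the submitters' processing notes. The counter, strand setting and annotation release were not given there or in the other sources used here. A second deposited table, the same counts divided by 1 size factor per library, was not used.

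Symbols were matched by identifier for 15080 of 15113 genes, and positions came from GENCODE M21 on GRCm38. The main test was the robust quasi-likelihood test of edgeR (version 4.0.16, R version 4.3.3) on the 13025 genes left by filterByExpr, with TMM factors, Benjamini-Hochberg adjustment over all of them and a threshold of 0.05. CPM uses TMM-scaled library sizes. SEs and 95% intervals were derived from the F statistic. Ratios were tested by exact permutation in Python version 3.11.15, adjusted with SciPy version 1.17.1. The edgeR test was also run on simulated counts, and the ratio test was not. Within each group every pair of libraries differed by more than counting error, with chi-square over degrees of freedom of 5.03 to 57.2. Pairs across the groups were not compared, and libraries made from the same culture cannot be told in this way.

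The members, lists and tests were chosen with earlier results of these data known. Besides the 10 members and Dnm1l, the named genes are the 2 of each list that changed most in either direction, among called genes with at least 5 CPM in the higher group, and 3 profile neighbours of Chrna1, Chrng and Musk without predicted genes and pseudogenes. A gene that this rule names is not reported here. Zbtb4, Chrnb2, Ache, Colq, Gmppb, Dpagt1, Alg14, Id1, Id2, Fyn, Yes1, Acta2, Smtn and Pdgfra were also singled out after their values were seen. Alternatives were median-ratio factors, library totals alone, no and a stricter low-count filter (1 CPM in 5 libraries), DESeq2 version 1.42.0, the replicate number as a block, a pseudocount of 1 for ratios and leaving out each library; leaving out shRandom replicate 1 and shDRP1 replicate 2 together was added after seeing the data.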

Additional observations from a re-analysis of the deposited data

Results flagged for a closer look

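In 6 of 70 groups of libraries examined, 1 library lay apart from the others of its group by Dixon's test. For independent, normally spread values chance gives about 1 in 20, but many of these groups share counts and are not independent. In 4 of the 6 flagged groups the library was shRandom replicate 1. There Chrnd was at 299.8 CPM, where the other control libraries ran from 188 to 227 CPM, and Lrp4 was at 12.3 CPM, where the others ran from 5.41 to 7.80 CPM. The log2 ratio of Musk to Agrn was 0.077 in that library and 0.618 to 0.926 in the others, and Ubxn2a was at 22.1 CPM against 34.5 to 40.4 CPM. Myog was at 952 CPM in shRandom replicate 4 and between 1319 and 1516 CPM in the other control libraries. Erbb3 was at 0.155 CPM in shDRP1 replicate 2 and had no count in the other shDRP1 libraries, so that any count in that library would have been flagged. Without shRandom replicate 1 and shDRP1 replicate 2 together, 7 members fell and 1 rose, as with them.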

How the results depend on the processing

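Of 466 values under 20 alternative settings, 460 kept their direction and their side of the threshold, with counts taken as kept within 1.5 times. In all settings 7 or 8 members were called lower and 1 higher; the eighth was Chrne, which was tested without the low-count filter and by DESeq2. Among the other receptor subunits, the count of 0 genes lower became 1, Chrnb2, without the low-count filter and with DESeq2. Leaving out each library in turn, the log2 fold change of Agrn ran from 0.31 to 0.41, that of Musk from -4.51 to -4.18 and that of Lrp4 from -0.57 to -0.05. With library totals alone the median of all genes moved from 0.03 to 0.13, Agrn was at 0.45 and Lrp4 at -0.14.

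Pairing of the libraries by replicate number is not stated in the labels and was neither shown nor excluded. Deviations of same-numbered libraries correlated between -0.24 and 0.44, and 1 of 5 shDRP1 libraries correlated best with its own number. With the replicate block, edgeR called 3934 genes higher and 4003 lower, beside 4413 and 4332, and 7 members lower and 1 higher; shRandom replicate 6 has no partner and adds nothing there. With the replicate block the paired sign-flip test of the ratios gave differences of -3.80 for Chrng to Chrne, -0.81 for Chrna1 to Chrnb1, -3.97 for Musk to Lrp4 and -4.72 for Musk to Agrn, each with an exact p of 0.0625, the smallest that 5 pairs allow. With a pseudocount of 1 the difference for Chrng to Chrne was -4.42. Depth limits Chrne, Chrnb2, Ache, Colq and, in shDRP1 libraries, Dok7, Erbb3 and Msc, whose sizes of change are uncertain.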

Other observations

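Several junction genes outside the rule for named genes, singled out after their values were seen, were nearly absent from 1 of the groups. Butyrylcholinesterase (Bche), the esterase of plasma and glia, had 18 counts over the shRandom and 270 over the shDRP1 group, and rose from 0.167 to 3.07 CPM (log2 fold change 4.15, adjusted p = 5.3e-10, edgeR). Dach2, a repressor in the pathway by which muscle activity lowers receptor genes, had 0 counts in the 6 shRandom libraries and 62 in the shDRP1 libraries, at 0.412 to 1.00 CPM, so that it was at least 25.5-fold higher against a floor of 3 counts over the control group; it was below the low-count filter.

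Each of the following had 1 count in the shDRP1 group. The muscle sodium channel Scn4a, which carries the action potential away from the synapse, was at 1.02 to 1.85 CPM in shRandom libraries, a ratio of control to shDRP1 of 128 (95% exact binomial interval 22.6 to 5086). For the syntrophin Sntb1 the ratio was 156 (27.7 to 6205), and for the synaptic collagen Col13a1 it was 73.7 (12.9 to 2942). These intervals cover counting error only. The bound for Dach2 covers counting error of the control group only, with the shDRP1 counts taken as exact.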
